A study of Mus musculus with 6 samples.

Results

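Mature neutrophils that carried transcripts of the interferon response were picked out of the calvarial bone marrow of mice by what each cell's own counts held. A cell that passed quality limits counted as a mature neutrophil when S100a8 and S100a9 made up at least 2% of its unique molecular identifiers (UMIs, the counted transcript molecules), when the granule genes Ltf, Ngp and Camp made up under 1%, and when the cycling genes Mki67 and Top2a had 0 UMIs. It counted as an interferon-response neutrophil when Ifit1 and Ifit3 together had at least 2 UMIs. There were 3837 such cells among 17559 mature neutrophils and 37576 cells of all types, and the remaining 13722 mature neutrophils served as the comparison. The class was chosen by measured Ifit1 and Ifit3, so it is a range of a continuous count and not a separate cell type, and the levels of those genes are given below only as a description.

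Cells came from wild-type C57BL/6 mice with no treatment, stated to be male, whose calvaria were freed of dura and periosteum, digested with collagenase and dispase, lysed for red cells and depleted of dead cells. At 2 months (02m), 12 months (12m) and 18 months (18m), CBMA libraries held the sagittal suture with adjacent parietal bone and CBMD libraries held parietal bone away from sutures. Each library pooled cells of 6 to 8 mice, and the 2 sites of an age may share mice. With 1 library for each age and site, age cannot be told apart from any other difference between libraries, so no p-value is given for age.

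The 6 libraries held 3280 to 9749 barcodes and 16031737 to 66264495 UMIs. Libraries shared 7 to 25 barcodes in pairs, and 28 of the interferon-response neutrophils carried a barcode that was also a cell of another library. The female-specific transcript Xist was found in 25% and 31.0% of interferon-response neutrophils and in 20.5% and 27.5% of other mature neutrophils at 12m in CBMA and CBMD, against at most 0.0591% in any class of the other libraries, which goes against the stated sex at 12m. One interferon-response cell of CBMD_18m held 41627 UMIs, 12.3% of the UMIs of its class in that library, of which 16758 were of the immunoglobulin gene Igkc. The label fitted the neutrophil part of the class: 10 neutrophil identity markers that the selection did not use summed to 23344 to 32009 counts per 1000000 UMIs (CPM) in interferon-response neutrophils, against 26853 to 33904 CPM in the other mature neutrophils, and were lower in all 6 libraries.

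Type I interferons bind the receptor pair Ifnar1 and Ifnar2 and signal through Jak1 and Tyk2 to transcription factors that enter the nucleus and bind the interferon-stimulated response element upstream of target genes. The targets include the IFIT proteins, which bind foreign RNA, the ubiquitin-like protein Isg15, and Rsad2 (viperin), which makes a chain-terminating nucleotide from a precursor that the neighbouring gene Cmpk2 helps to supply. Neutrophils leave the marrow as non-dividing cells and respond to interferon with the same gene program.

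Promoters of 4 genes that mark the class are printed because they carry the response element in readable form: Ifit1 and Ifit3, on which cells were selected, and Isg15 and Rsad2, which the selection did not use. Each sequence is the 250 bases before the RefSeq start site on GRCm38.p6, in the direction of the gene, and capitals mark every match to GAAANNGAAA or its reverse complement, overlapping matches included.
Ifit1, chr19:34640639-34640888, plus strand: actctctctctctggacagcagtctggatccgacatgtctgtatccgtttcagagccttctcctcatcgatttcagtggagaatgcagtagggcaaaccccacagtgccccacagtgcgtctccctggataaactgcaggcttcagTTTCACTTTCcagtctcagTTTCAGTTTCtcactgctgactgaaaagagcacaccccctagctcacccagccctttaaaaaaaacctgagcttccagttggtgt
Ifit3, chr19:34583279-34583528, plus strand: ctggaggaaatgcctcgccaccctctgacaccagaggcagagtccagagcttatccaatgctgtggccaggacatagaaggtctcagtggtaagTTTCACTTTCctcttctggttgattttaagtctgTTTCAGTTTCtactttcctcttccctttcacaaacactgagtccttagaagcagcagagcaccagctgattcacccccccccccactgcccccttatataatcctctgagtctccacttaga
Isg15, chr4:156200819-156201068, minus strand: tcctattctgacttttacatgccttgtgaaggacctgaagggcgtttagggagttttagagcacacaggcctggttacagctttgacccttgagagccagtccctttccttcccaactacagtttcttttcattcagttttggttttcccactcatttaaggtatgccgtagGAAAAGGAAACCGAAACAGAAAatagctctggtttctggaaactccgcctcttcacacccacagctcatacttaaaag
Rsad2, chr12:26456453-26456702, minus strand: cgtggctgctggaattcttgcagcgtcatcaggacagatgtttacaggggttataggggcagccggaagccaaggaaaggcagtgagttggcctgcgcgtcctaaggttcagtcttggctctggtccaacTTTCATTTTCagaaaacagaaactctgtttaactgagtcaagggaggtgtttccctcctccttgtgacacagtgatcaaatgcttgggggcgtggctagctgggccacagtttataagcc
Ifit1 and Ifit3 each held 2 matches, Isg15 held 3 that overlap, and Rsad2 held 1. The motif, searched on both strands, was in 1131 of 32851 RefSeq promoter windows of 300 bases (3.44%). Of 128 genes on the interferon lists, 102 were in the promoter table and 45 of these (44.1%) had a match, among them 9 of 10 Mx, GBP and IRG GTPases and 2 of 17 interferon signaling genes. A match is a description of the sequence and not a bound site.

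The share of mature neutrophils in the class differed more between ages than between sites. In CBMA, 1758 of 3508 mature neutrophils belonged to it at 02m (50.1%, exact 95% binomial interval 48.4 to 51.8), 12 of 794 at 12m (1.51%, 0.783 to 2.63) and 94 of 3605 at 18m (2.61%, 2.11 to 3.18). In CBMD the counts were 1854 of 4330 at 02m (42.8%, 41.3 to 44.3), 29 of 1848 at 12m (1.57%, 1.05 to 2.25) and 90 of 3474 at 18m (2.59%, 2.09 to 3.17). Both 02m libraries were thus far above all 4 older libraries, and 3612 of the 3837 cells (94.1%) came from 02m. The 12m share was 0.0302 times the 02m share in CBMA (0.0156 to 0.0528) and 0.0367 times in CBMD (0.0245 to 0.0528). The 18m share was 0.0520 times the 02m share in CBMA (0.0418 to 0.0641) and 0.0605 times in CBMD (0.0484 to 0.0748), a 19.2-fold and a 16.5-fold lower share. These intervals cover counting error only and say nothing about the spread between mice.

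Between sites, the CBMA share was 1.17 times the CBMD share at 02m (1.10 to 1.25), 0.963 times at 12m (0.448 to 1.95) and 1.01 times at 18m (0.746 to 1.36). Only the 02m interval leaves out 1, and with a single library per site no test across mice was possible. Of all cells in a library, the class made up 20.5%, 0.442% and 1.30% for CBMA with 23.3%, 0.650% and 1.36% for CBMD, from 02m over 12m to 18m.

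**Figure D1:**
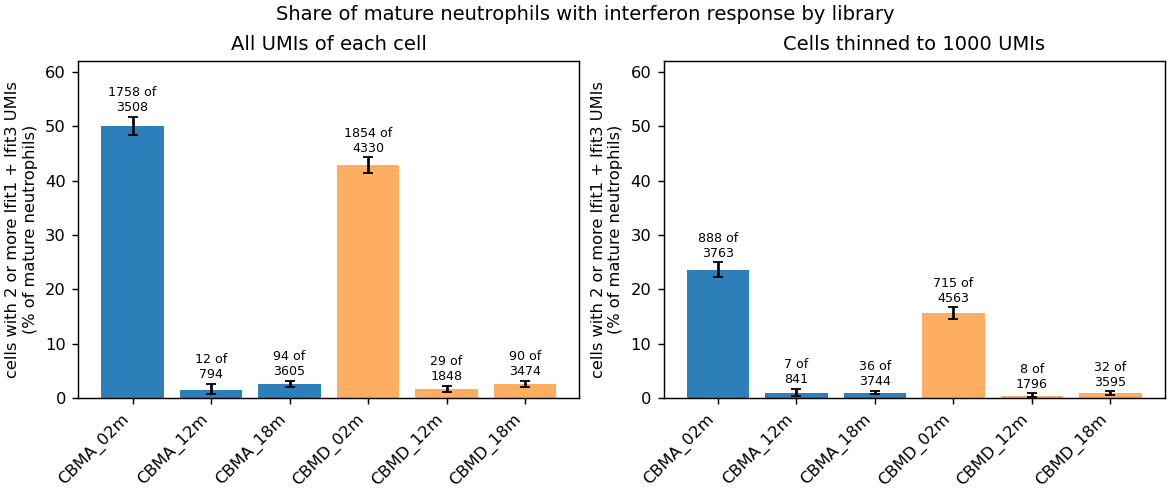
Share of mature neutrophils with at least 2 Ifit1 and Ifit3 UMIs (y axis, % of mature neutrophils) in each library (x axis), with every UMI of a cell used (left) and with cells thinned to 1000 UMIs (right). Bars are shares, error bars exact 95% binomial intervals and the printed counts the cells of the class of all mature neutrophils. Both 02m bars stand above 15% in both panels, and the 4 older bars stand below 3%.

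A deeper cell reaches 2 UMIs more easily, so depth was measured beside the shares. The median UMIs per cell were 2565.5 to 3642.5 in interferon-response neutrophils, against 2099 to 2996 in other mature neutrophils, and higher in the class in every library. When each cell was thinned to 1000 UMIs, with shallower cells left out, the class took 23.6%, 0.832% and 0.962% for CBMA with 15.7%, 0.445% and 0.890% for CBMD, by rising age. Both 02m libraries thus stayed far above the older ones at equal depth. With a minimum of 1 UMI in place of 2, the 12m share in CBMA was 0.0983 times that of 02m, and the 3 other ratios were 0.0600 to 0.0866.

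Other cell types of the same libraries give a background for these shares. Cells with at least 2 Ifit1 and Ifit3 UMIs were 8.21%, 0% and 0.599% of CBMA B cells and 7.46%, 0.833% and 0% of CBMD B cells at 02m, 12m and 18m, at median depths of 4820.5 to 10128.5 UMIs, so the 02m neutrophil shares were far above those of B cells. At 12m, 0 of 69 B cells in CBMA allows a share of up to 5.21% and 3 of 360 in CBMD has an interval of 0.172 to 2.42%, so the neutrophil shares there cannot be told apart from the B cell shares at this depth. At 18m, 0 of 245 B cells in CBMD allows up to 1.49%, below the neutrophil share, whereas 1 of 167 in CBMA has an interval of 0.0152 to 3.29% that takes in the neutrophil share. Retnlg, a neutrophil gene, was at 34.8 to 160 CPM in B cells, against 18835 to 24519 CPM in mature neutrophils. The source of the Retnlg UMIs in B cells was not tested. Monocytes and macrophages had shares of 19.4%, 4.81% and 3.76% for CBMA with 15.0%, 2.77% and 2.96% for CBMD, with the highest value at 02m, as in neutrophils. Their median depth at 02m was 8501 UMIs in CBMA and 9413 UMIs in CBMD, against 2909.5 and 3041 UMIs in mature neutrophils. Proliferating neutrophils, with Mki67 or Top2a UMIs, had 24.4%, 1.79% and 1.20% for CBMA with 39.2%, 0.270% and 1.43% for CBMD. Immature neutrophils, with Ltf, Ngp and Camp at 1% or more, had 14.3% and 33.3% at 02m and at most 1.03% later. T cells had 20.6%, 6.48% and 1.67% with 10.3%, 2.11% and 3.41%. Median depth at 02m was 3652 to 4821.5 UMIs in these last 3 types. Cells were also thinned as above, with their types set before thinning. The 02m shares in CBMA and CBMD were then 24.2% and 15.7% in mature neutrophils. They were 7.77% and 12.5% in proliferating neutrophils, 4.26% and 8.06% in immature neutrophils and 4.33% and 2.94% in T cells. Monocytes and macrophages had 2.39% and 1.71%, and B cells 2.24% and 1.59%. A share that was highest at 02m was thus not particular to mature neutrophils. At equal depth the 02m share was higher in them than in these other types.

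Transcripts of type I interferons themselves were almost absent. Over all cells of the 6 libraries Ifnb1 had 9 UMIs, Ifna2 had 7 and Ifna4 had 1, and interferon-response neutrophils held 0 UMIs of each. Ifng, the type II interferon made by T and NK cells, had 1162 UMIs, of which 1 lay in an interferon-response neutrophil.

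The selecting genes were present in every library. Ifit1 was at 745, 519 and 994 CPM for CBMA with 499, 631 and 790 CPM for CBMD at 02m, 12m and 18m in interferon-response neutrophils, against 50.1, 11.1 and 6.45 CPM and 41.6, 3.52 and 5.25 CPM in other mature neutrophils. Ifit3 was at 841, 749 and 656 CPM for CBMA with 682, 446 and 481 CPM for CBMD in the class, against 60.4, 10.0 and 3.35 CPM and 64.2, 3.35 and 2.73 CPM outside it. The gap is what the selection made. Outside the class both genes were highest in the 02m libraries, where 1379 cells with 1 UMI counted among the others.

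Isg15, which is conjugated to other proteins as ubiquitin is, was at 1148, 692 and 906 CPM for CBMA with 919, 922 and 578 CPM for CBMD at 02m, 12m and 18m in interferon-response neutrophils, against 435, 74.9 and 99.8 CPM and 426, 89.3 and 67.6 CPM in other mature neutrophils. Rsad2 was at 740, 1441 and 1504 CPM for CBMA with 567, 2164 and 1911 CPM for CBMD in the class, against 303, 179 and 132 CPM and 281, 209 and 138 CPM outside it. For both genes the lowest library of the class lay above the highest library of the other neutrophils, and the fitted log2 ratios were 2.41 (SE 0.18) and 2.61 (SE 0.21) over the 6 libraries. Interferon targets are induced together with Ifit1 and Ifit3, so their ratios are described here with no p-value.

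Cells on either side of the limit lay close to each other. At 02m, 901 cells had exactly 2 Ifit1 and Ifit3 UMIs and 1379 had 1, and Isg15 was at 761 CPM in the cells with 2 UMIs, against 563 CPM with 1 UMI and 356 CPM with 0. At 12m and 18m together, 89 cells had 2 UMIs and 272 had 1, and Isg15 was at 316 CPM with 2 UMIs, against 288 CPM with 1 and 78.0 CPM with 0. Rsad2 followed the same order, at 459, 373 and 245 CPM with 2, 1 and 0 UMIs at 02m and at 859, 493 and 140 CPM at the older ages. The class is therefore open at its lower end, with cells of 1 UMI lying between it and the rest.

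The ages differed at the upper end as well. With 10 or more Ifit1 and Ifit3 UMIs, the 31 cells of 12m and 18m had 4774 CPM of Rsad2, against 970 CPM in the 468 cells of 02m. Cmpk2 was at 670 CPM at the older ages, against 151 CPM at 02m. Ifi27l2a, a small interferon-induced protein, ran the other way, at 1694 CPM at the older ages, against 9694 CPM at 02m. At 0 UMIs Ifi27l2a was already apart, at 283 CPM at the older ages, against 5253 CPM at 02m. Rsad2 and Cmpk2 were lower at the older ages there, at 140 and 33.5 CPM, against 245 and 36.5 CPM. The cells with 10 or more UMIs had median depths of 2706 UMIs at the older ages and 4297 UMIs at 02m, so they were not matched for depth. Their sums rest on few cells, 0 of them from CBMA_12m, and carry no test.

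**Figure D2:**
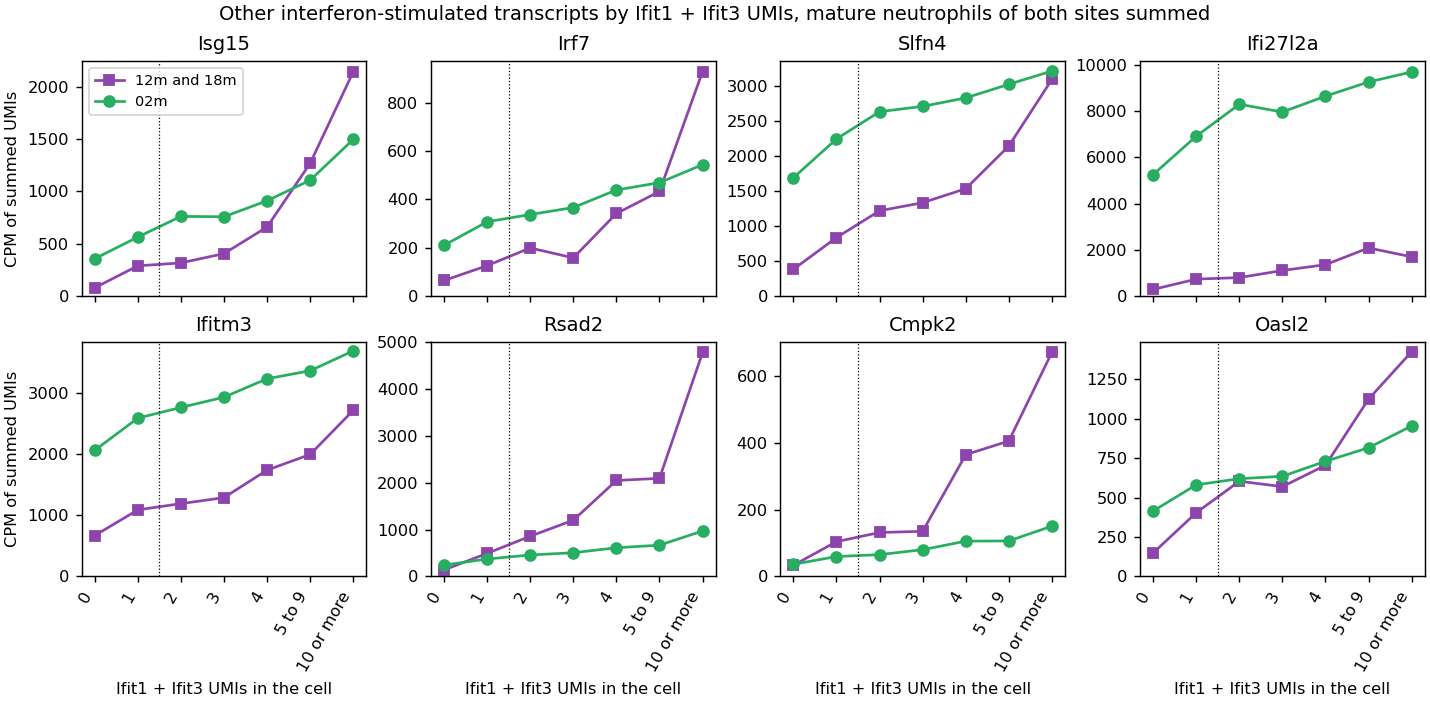
CPM of 8 interferon-stimulated transcripts (y axes, summed UMIs) in mature neutrophils grouped by their Ifit1 and Ifit3 UMIs (x axes), with both sites summed, at 12m and 18m (squares) and at 02m (circles). The dotted line marks the limit of 2 UMIs. All 8 transcripts were higher at 10 or more UMIs than at 0 at both ages, and Ifi27l2a at 02m stayed above its older level in every group of cells.

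Per cell, 89 genes of 7 antiviral lists were counted after thinning to 1000 UMIs. The median interferon-response neutrophil held 34, 22.5 and 22 of these UMIs for CBMA with 30, 18 and 22.5 for CBMD, by rising age, against 22, 8 and 8 and 20, 6 and 7 in other mature neutrophils. The 10th to 90th percentiles of the 2 classes overlapped at 02m, with 20 to 54 UMIs in the class and 10 to 38 outside it in CBMA, and also at 18m, with 10 to 51.6 in the class and 4 to 17 outside it in CBMA. The other mature neutrophils of 02m thus carried about as many of these UMIs as the interferon-response neutrophils of 12m and 18m. The mix of genes differed. The median cell of these 02m neutrophils held 10 of the 89 genes at each site. In the class it held 15 and 14 for CBMA with 11 and 13 for CBMD at 12m and 18m. Ifi27l2a was at 5748 and 5908 CPM in these 02m neutrophils, against 1106 to 1585 CPM in the older class. Rsad2 was at 303 and 281 CPM, against 1441 to 2164 CPM.

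Most genes of the interferon lists were higher in the class in every library. Of 112 measured list genes other than Ifit1 and Ifit3, 65 had a higher CPM in interferon-response neutrophils in all 6 libraries and 0 had a lower one in all 6, where 1.86% of all 9972 genes measured were higher and 6.64% lower in all 6. The median log2 ratio was 0.88 over the lists and -0.03 over all genes. These lists were drawn up with results of these data known, and the direction follows from the selection.

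Among effectors of the IFIT and IFITM lists 4 of 8 genes were higher in all 6 libraries. Ifit2, a close relative of the selecting genes, was at 111, 173 and 136 CPM for CBMA with 71.9, 77.6 and 153 CPM for CBMD in interferon-response neutrophils, against 15.7, 3.69 and 1.29 CPM and 11.8, 1.76 and 1.92 CPM in other mature neutrophils (log2 ratio 3.85, SE 0.29). Ifitm3, a membrane protein that blocks viral entry, was at 3435, 2133 and 1760 CPM for CBMA with 3032, 1815 and 1312 CPM for CBMD, against 2446, 684 and 732 CPM and 2115, 806 and 558 CPM (log2 ratio 1.00, SE 0.09). Ifit2 separated the classes in every library, whereas for Ifitm3 the interferon-response neutrophils of 12m and 18m lay below the other 02m neutrophils of their own site. Its relatives Ifitm1 and Ifitm2 had log2 ratios of 0.16 (SE 0.11) and 0.04 (SE 0.08), each higher in 4 of 6 libraries.

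The oligoadenylate synthetases, which make the second messenger that activates RNase L, were higher in all 6 libraries for 5 of 9 genes. Oasl2 was at 843, 1326 and 795 CPM for CBMA with 694, 699 and 793 CPM for CBMD in interferon-response neutrophils, against 500, 214 and 179 CPM and 457, 125 and 140 CPM in the others, and the classes did not overlap. Of the interferon-inducible GTPases, which attack pathogen vacuoles, 8 of 11 were higher in all 6. Gbp2 was at 76.7, 115 and 446 CPM for CBMA with 59.5, 48.5 and 271 CPM for CBMD in the class, against 30.2, 21.1 and 45.8 CPM and 28.8, 16.2 and 26.9 CPM outside it, with the highest values at 18m. The 12m values of Gbp2 in the class rest on 4 UMIs in CBMA and 5 UMIs in CBMD.

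Of the Isg15 conjugation genes 3 of 6 were higher in all 6 libraries. Usp18, the protease that removes Isg15 and dampens the receptor, had a log2 ratio of 1.99 (SE 0.23) with 111 to 202 CPM in interferon-response neutrophils, against 12.0 to 70.5 CPM in the others. Of the RNA and DNA sensors 9 of 11 were higher in all 6, among them Ddx58 (RIG-I) at 101 to 231 against 37.3 to 78.2 CPM and Zbp1, a sensor of Z-form nucleic acid, at 58.2 to 263 against 11.8 to 106 CPM. Ddx58 did not overlap between the classes, and Zbp1 did.

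Of the antiviral effectors 14 of 17 were higher in all 6 libraries. Cmpk2 was at 112, 288 and 253 CPM for CBMA with 92.0, 204 and 313 CPM for CBMD in interferon-response neutrophils, against 48.7, 57.5 and 37.7 CPM and 41.9, 30.7 and 32.7 CPM in the others. Ifi27l2a was at 9005, 1585 and 1275 CPM for CBMA with 8704, 1106 and 1215 CPM for CBMD in the class, against 5748, 407 and 296 CPM and 5908, 454 and 191 CPM outside it. Cmpk2 separated the classes across all libraries, while Ifi27l2a was higher in the class within each library but higher in the other neutrophils of 02m than in the class at 12m and 18m.

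In the Ifi200 and Schlafen families, whose members sense DNA or restrain proliferation and viral translation, 6 of 13 were higher in all 6 libraries. Slfn4 was at 3185, 1729 and 1541 CPM for CBMA with 2691, 1679 and 1799 CPM for CBMD in interferon-response neutrophils, against 2014, 459 and 426 CPM and 1803, 352 and 377 CPM in the others. Slfn5 had a log2 ratio of 2.44 (SE 0.22), the highest of its list. Slfn4 overlapped between the classes through the 02m libraries, and Slfn5 did not, with 369 CPM in the lowest library of the class and 362 CPM in the highest of the others.

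The signaling genes moved least. Of 19 interferon signaling genes 5 were higher in all 6 libraries, and the list's median log2 ratio was 0.14. Irf7, the factor that amplifies interferon production and is itself a target, was at 522, 461 and 363 CPM for CBMA with 365, 233 and 336 CPM for CBMD in interferon-response neutrophils, against 283, 87.1 and 66.2 CPM and 217, 70.5 and 59.3 CPM in the others. It was higher in the class in each library. Jak1, the kinase bound to the receptor, had a log2 ratio of 0.03 (SE 0.10) with 3 libraries in each direction. Of the genes for MHC class I presentation 11 of 18 were higher in all 6, with smaller ratios, such as 0.61 (SE 0.09) for the light chain B2m and 0.99 (SE 0.14) for the peptide transporter Tap1.

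**Figure D3:**
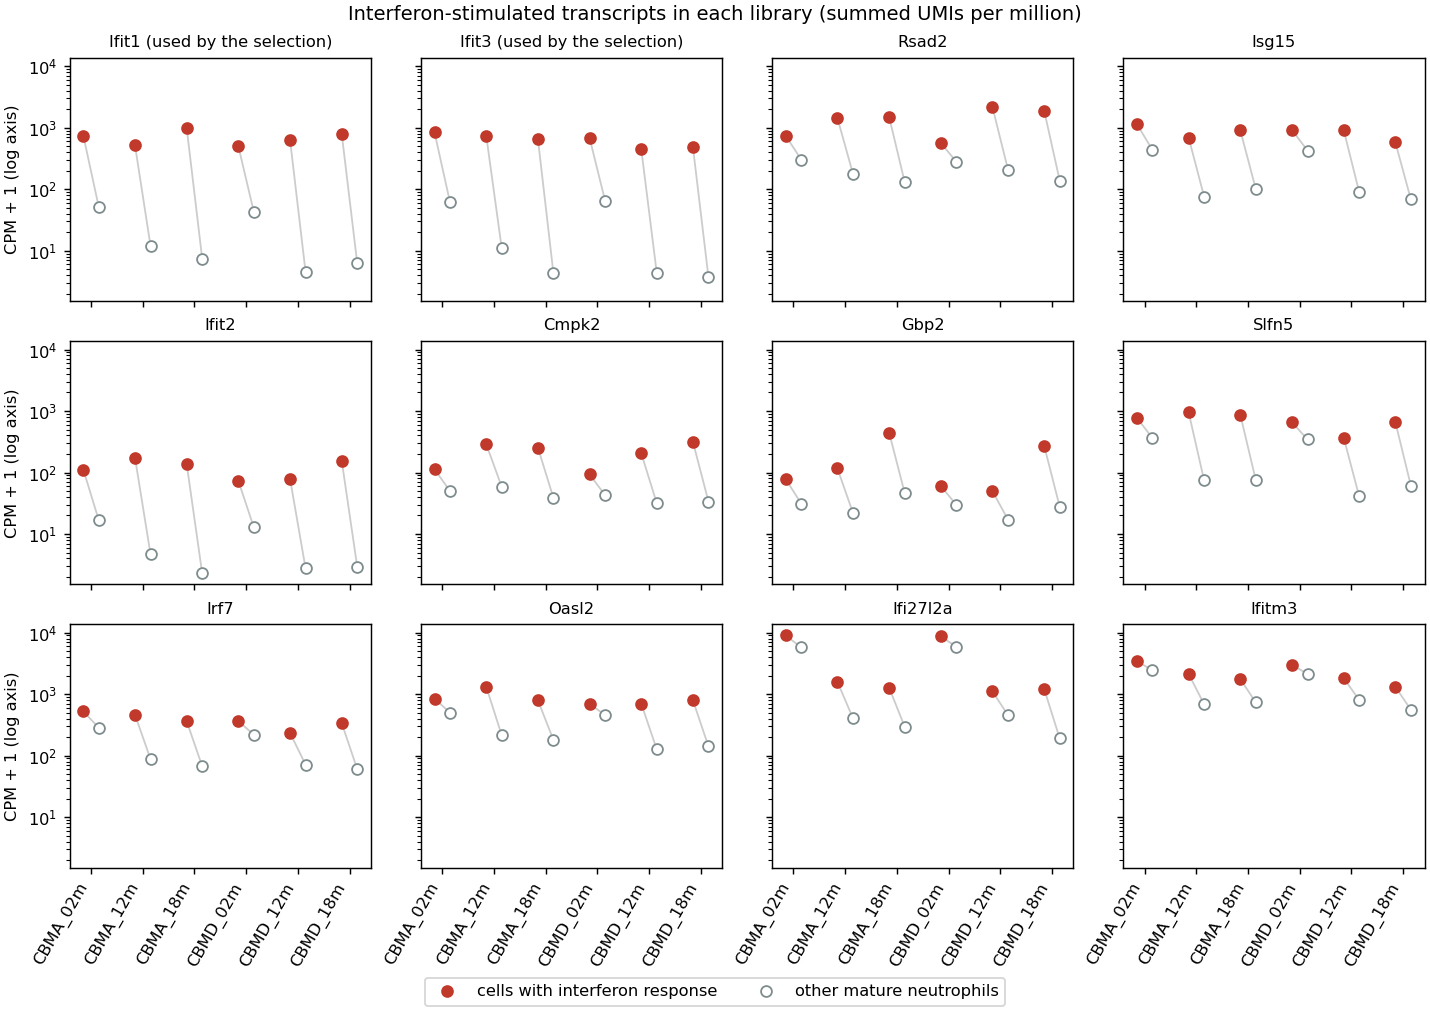
Levels of 12 interferon-stimulated transcripts (y axes, CPM + 1 on a log axis) in each library (x axes), in interferon-response neutrophils (filled) and in other mature neutrophils (open) joined by a line. Ifit1 and Ifit3 were used by the selection. In every panel and library the filled point lies above the open one, and Ifi27l2a and Ifitm3 are highest at 02m while Rsad2 is lowest there in the class.

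Genes outside the interferon lists were tested with edgeR's quasi-likelihood test on the 12 sums of UMIs, with library as a block and Benjamini-Hochberg adjustment over all 9972 genes. Of these, 193 were higher (1.94%) and 23 lower (0.231%) in interferon-response neutrophils at an adjusted p under 0.05. The 193 include 84 genes of the interferon lists, and 109 lie outside them. Being off the lists does not make a gene independent of the selection. For any of the 109 that is induced together with Ifit1 and Ifit3, the direction follows from the selection. The p-value of such a gene describes the gap and is no separate support for it. The selection used UMIs of the same cells, so depth and mixed droplets bear on this test as well: 0 to 10.2% of interferon-response neutrophils, against 2.17 to 8.10% of other mature neutrophils, were among the highest doublet scores of their library, and the class was above the others only at 02m.

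Of the 109 genes, 50 were higher in every library and reached 20 CPM, and the highest log2 ratios among them were those of Tuba8, Ifi207 and Rnf213. Clec2d, the ligand of an inhibitory NK cell receptor, was at 225, 461 and 360 CPM for CBMA with 205, 466 and 448 CPM for CBMD at 02m, 12m and 18m in interferon-response neutrophils, against 127, 148 and 151 CPM and 135, 139 and 156 CPM in other mature neutrophils. Its log2 ratio was 1.16 (SE 0.11, edgeR adjusted p = 3.95e-10, higher in 6 of 6 libraries), and the classes did not overlap. Its promoter holds 1 match to the response element, in capitals as above.
Clec2d, chr6:129180365-129180614, plus strand: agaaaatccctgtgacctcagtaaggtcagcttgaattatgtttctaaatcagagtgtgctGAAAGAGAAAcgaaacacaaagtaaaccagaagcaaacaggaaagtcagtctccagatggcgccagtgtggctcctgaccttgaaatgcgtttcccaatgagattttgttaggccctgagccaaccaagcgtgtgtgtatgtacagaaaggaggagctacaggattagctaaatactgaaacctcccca
Of the 109 genes, 83 were in the promoter table and 22 of these (26.5%) had a match, as had 306 of 7280 tested genes (4.20%) and 0 of 15 matched genes among those lower in the class.

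Rnf213, a ubiquitin ligase, was at 115, 231 and 238 CPM for CBMA with 112, 194 and 189 CPM for CBMD in interferon-response neutrophils, against 65.0, 57.0 and 40.3 CPM and 64.6, 54.8 and 40.1 CPM in the others (log2 ratio 1.47, SE 0.16, edgeR adjusted p = 3.17e-09). Ly6e, a membrane-anchored restriction factor, was at 1332, 749 and 1076 CPM for CBMA with 1174, 650 and 941 CPM for CBMD, against 896, 396 and 402 CPM and 844, 302 and 365 CPM (log2 ratio 0.96, SE 0.10, edgeR adjusted p = 3.8e-09). Cd274, which encodes the checkpoint ligand PD-L1, was at 39.8, 57.6 and 150 CPM for CBMA with 58.5, 146 and 156 CPM for CBMD, against 27.5, 20.6 and 27.2 CPM and 50.0, 109 and 27 CPM (log2 ratio 1.04, SE 0.20, edgeR adjusted p = 0.000494). All 3 were higher in the class in 6 of 6 libraries, but only Rnf213 did not overlap between the classes. The Cd274 value of the class in CBMA_12m rests on 2 UMIs.

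The highest log2 ratio outside the lists was that of the tubulin Tuba8, at 2.19 (SE 0.33), from low levels of 5.85 to 57.6 CPM in interferon-response neutrophils, against 1.89 to 6.33 CPM in the others. In the class of CBMA_12m 1 UMI amounts to 28.8 CPM, so levels this low are imprecise there. Ifi207, an Ifi200 family gene that was not on the list, had 1.48, and the torsin Tor3a, the ESCRT-linked Mitd1, Epsti1 and the signaling inhibitor Trafd1 had 1.06 to 1.30. All 15 genes with the highest ratios kept their edgeR or DESeq2 adjusted p under 0.05 in every alternative in which they were tested, except Ttc39c, which reached 0.122 without CBMA_02m. Every alternative kept the selection on Ifit1 and Ifit3. For genes induced together with these 2, a call that was kept is therefore no separate support.

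Most genes of neutrophil function did not pass the test between the classes. Of 145 measured genes on 10 neutrophil lists, 8 rose (5.52%) and 5 fell (3.45%) in the class, against 1.94% and 0.231% of all genes tested. By edgeR's quasi-likelihood test 0 of 14 other secondary granule genes, 14 tertiary granule and membrane genes, 19 AP-1 and early response genes, 10 heat shock genes and 6 stefin A cluster genes passed. Of these 63 genes, 8 had an unadjusted p under 0.05, and DESeq2 called 0. Some of them passed by edgeR in the 02m libraries alone. In the stefin A cluster Stfa1, BC100530, Stfa3 and Gm5483 were higher there, with log2 ratios of 0.34, 0.52, 0.48 and 0.16. Fosb, an early response gene, was lower there, at -0.26. Stfa3 also passed as higher without CBMA_18m (0.37) and without CBMD_18m (0.53), and Gm5483 as lower with the sites of an age summed (-0.37). The collagenase gene Mmp8 had a log2 ratio of -0.18 (SE 0.09), the chemokine receptor Cxcr2 one of 0.08 (SE 0.08) and the cytokine gene Il1b one of -0.04 (SE 0.07), and none of the 3 passed. Of 10 identity markers only Retnlg fell, by 0.27 on the log2 scale, and it was lower in 6 of 6 libraries. Retnlg did not pass with DESeq2 (adjusted p = 0.581), with the sites of an age summed (edgeR adjusted p = 0.0544), without the 12m libraries (0.163) or in the 02m libraries alone (0.712, log2 ratio -0.018).

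Primary granule genes, which are transcribed in promyelocytes, gave the most calls of these lists, and 4 of 6 fell, where 0.231% of all genes did. Elane, which encodes neutrophil elastase, was at 44.9, 288 and 14.2 CPM for CBMA with 27.9, 97.1 and 5.90 CPM for CBMD in interferon-response neutrophils, against 102, 401 and 29.2 CPM and 54.4, 120 and 16.4 CPM in the others (log2 ratio -0.98, SE 0.12, edgeR adjusted p = 1.45e-07, lower in 6 of 6). Among the others 1 cell held 127 of 535 Elane UMIs in CBMA_02m and 1 cell 110 of 412 in CBMD_02m. At 12m and 18m the class held 10 and 5 Elane UMIs in CBMA with 10 and 2 in CBMD. Ctsg, Prtn3 and Mpo had log2 ratios of -0.63, -0.73 and -0.51 and were lower in 6, 5 and 5 of 6 libraries. The spread between libraries was wider than the gap, with the 12m libraries highest in both classes. Without the 02m libraries the edgeR adjusted p was 0.399 for Elane and higher for the other 3, Ctsg and Mpo also lost the call without CBMA_02m or without CBMD_02m and Prtn3 without CBMA_02m, and DESeq2 called 1 of the 6 genes. Ltf, Ngp and Camp, the selecting granule genes, lie below 1% of UMIs in both classes by construction.

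Cytokine and trafficking genes gave a few more calls. Cxcl10, an interferon-induced chemokine for T cells, had a log2 ratio of 2.04 (SE 0.29, edgeR adjusted p = 2.14e-06) and was higher in 5 of 6 libraries, at 19.7, 115 and 307 CPM for CBMA with 41.2, 0 and 171 CPM for CBMD in interferon-response neutrophils, against 11.7, 12.1 and 17.9 CPM and 23.4, 33.1 and 18.7 CPM in the others. Few cells carried it, and in each of 3 libraries 1 cell held most UMIs of the class, 84 of 108 UMIs in CBMA_18m, 46 of 58 in CBMD_18m and all 4 in CBMA_12m. With DESeq2 its adjusted p was 0.815. As an interferon target, it may be higher in the class through the selection alone. Ly6a (Sca-1) rose by edgeR's quasi-likelihood test with a log2 ratio of 1.77 in 4 of 6 libraries, and DESeq2 gave an adjusted p of 1.00. The glycolytic enzyme Hk2 rose by 0.49 and the inflammasome proteases Casp1 and Casp4 by 0.59 and 0.58, with Hk2 and Casp1 higher in all 6 libraries. With the class chosen at equal depth none of the 3 passed, at an edgeR adjusted p of 0.154 for Hk2, 0.910 for Casp1 and 0.217 for Casp4. Casp1 also lost the call without CBMA_02m (edgeR adjusted p = 0.139), without CBMD_02m (0.237) and with the sites of an age summed (0.0725). Daxx, a death domain-associated nuclear protein, rose by 0.52 and was higher in 4 of 6.

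**Figure D4:**
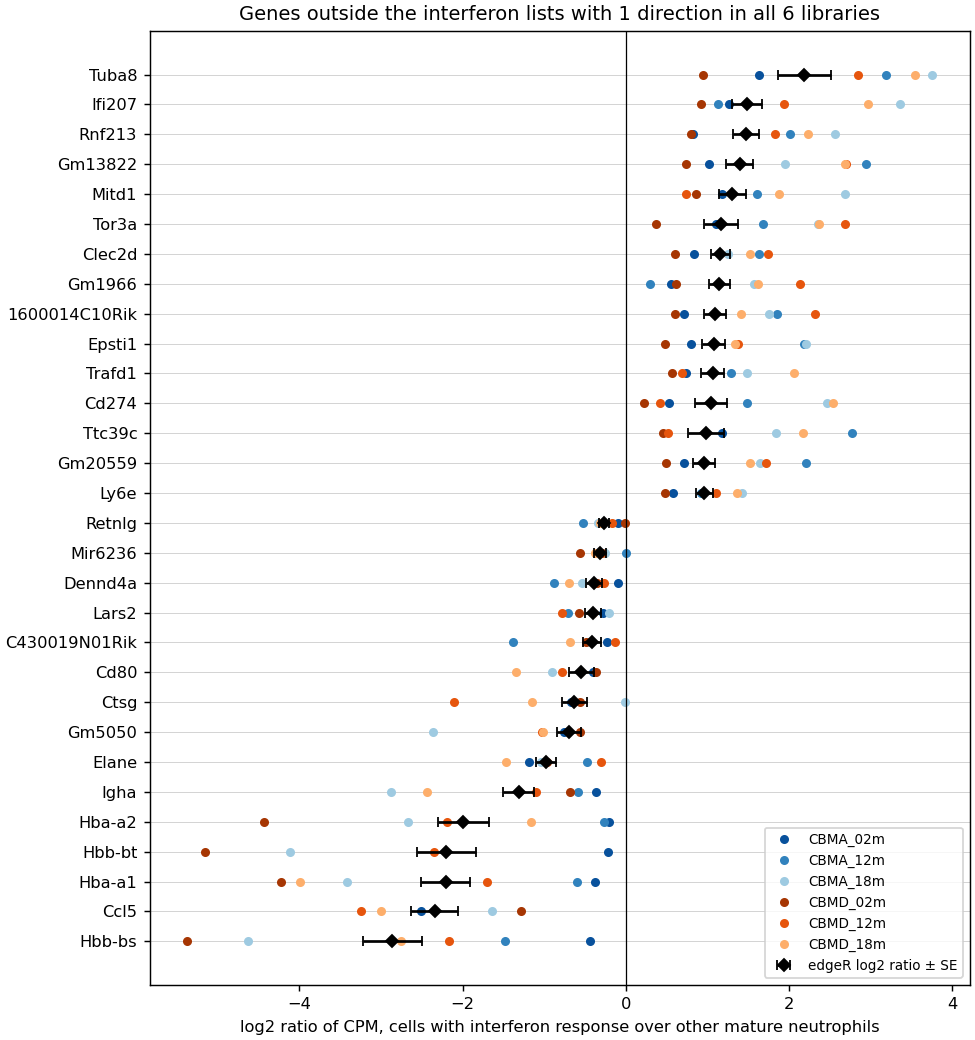
The 15 genes outside the interferon lists with the highest and the 15 with the lowest log2 ratio among those past the threshold, of 1 direction in all 6 libraries and with at least 20 CPM. The x axis is the log2 ratio of CPM in interferon-response neutrophils over other mature neutrophils, dots are libraries (not drawn where the class had 0 UMIs), and diamonds with bars are the edgeR estimate ± SE. The 02m dots lie nearest to 0 for most of the higher genes, and the globin genes have the widest spread.

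Erythroid transcripts were lower in the class. Hbb-bs, a globin gene of red cells, was at 2240, 28.8 and 22.7 CPM for CBMA with 12.7, 184 and 20.6 CPM for CBMD in interferon-response neutrophils, against 3050, 80.7 and 562 CPM and 526, 828 and 140 CPM in the others (log2 ratio -2.86, SE 0.36, edgeR adjusted p = 1.3e-07). A few cells held much of it among the others: the top cell held 88.3% of the Hbb-bs UMIs in CBMD_02m, 59.2% in CBMD_18m, 54.5% in CBMD_12m, 45.3% in CBMA_02m and 31.8% in CBMA_18m. All 4 measured globin genes fell by edgeR's quasi-likelihood test and 3 by DESeq2, which gave Hba-a2 an adjusted p of 0.155, and their sums with the other erythroid markers ranged from 34.6 to 4656 CPM in the class and from 228 to 5980 CPM outside it. Ccl5, a chemokine of T and NK cells, fell by 2.34 on the log2 scale with 0 to 9.71 CPM, against 1.19 to 92.3 CPM, but the log2 ratio was -0.24 and the call was lost (edgeR adjusted p = 1.00) once the highest doublet scores were left out. The 8 T and NK cell markers summed to 0 to 17.7 CPM, against 25.3 to 81.7 CPM, with Gzma at 0 UMIs in the class.

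Of 7 measured monocyte and macrophage markers 2 rose by edgeR's quasi-likelihood test and DESeq2 called 0. The 10 listed markers summed to 721 to 1047 CPM in interferon-response neutrophils, against 570 to 916 CPM in the others, and were higher in 5 of 6 libraries. Ly6c2, the Ly6C antigen of inflammatory monocytes, rose by 0.58 (SE 0.12, edgeR adjusted p = 0.00151) and was higher in 6 of 6, with 429 to 702 CPM against 254 to 502 CPM. It did not pass with the class chosen at equal depth (log2 ratio 0.23, edgeR adjusted p = 0.877), without CBMD_18m (edgeR adjusted p = 0.0849) or with DESeq2. Fn1, fibronectin, rose by 0.47 but had -0.70 with the highest doublet scores left out. Csf1r, the macrophage growth factor receptor, had a log2 ratio of -0.09 and was lower in 4 of 6 libraries, and F13a1, a coagulation factor subunit, had 0.32 with 3 libraries in each direction. B cell and plasma cell markers summed to 6.95 to 2807 CPM, against 6.48 to 277 CPM, with the top value in CBMD_18m, where the single Igkc-rich cell lay. Col1a1 and Col1a2, collagen genes of mesenchymal cells, passed the test as higher with 3 and 2 of 6 libraries higher. The part of other cells in the differences between the classes was not tested.

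Across ages, the interferon transcripts of the class did not move together. At equal total UMIs and with at least 50 UMIs over both sums, 23 of 74 interferon genes in CBMA had a 1.5-fold or greater excess at 18m and 11 an equally large deficit relative to 02m, where 23% and 11% of all 1922 genes were. In CBMD 28 of 72 were higher and 11 lower at 18m, where 18% and 16.3% of 1838 genes were. At 12m the sums were small, and 2 of 15 genes were higher and 6 lower in CBMA (19.5% and 20.1% of 154 genes), and 1 of 27 higher and 6 lower in CBMD (20.8% and 13.8% of 587 genes). The CBMA_12m values rest on 12 cells and 34698 UMIs.

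A first group of transcripts was lower at the older ages inside the class as well. Ifi27l2a at 18m was 0.142 times its 02m level in CBMA (exact 95% interval of 2 Poisson counts, 0.129 to 0.155) and 0.140 times in CBMD (0.126 to 0.154). Ifitm3 was 0.512 times (0.472 to 0.555) and 0.433 times (0.393 to 0.475), and Slfn4 0.484 times (0.444 to 0.527) and 0.668 times (0.616 to 0.724). Isg15 was 0.788 times (0.703 to 0.882) and 0.629 times (0.543 to 0.725). All of these intervals lie below 1, and at 12m the same 4 genes were lower than at 02m as well, except Isg15 in CBMD, which was level at 1.00 times (0.811 to 1.23). These intervals and those that follow treat each UMI as independent. They leave out the spread between cells, mice and libraries, so they are no test of age.

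A second group was higher at the older ages. Rsad2 at 18m was 2.03 times its 02m level in CBMA (1.85 to 2.22) and 3.37 times in CBMD (3.10 to 3.66), and at 12m it was 1.95 times (1.44 to 2.57) and 3.82 times (3.32 to 4.37). Cmpk2 at 18m was 2.25 times (1.78 to 2.81) and 3.40 times (2.75 to 4.17) and Gbp2 5.81 times (4.82 to 6.98) and 4.56 times (3.61 to 5.71). For Rsad2 and Cmpk2 all 4 comparisons with 02m gave intervals above 1, while Gbp2 at 12m was 1.5 times (0.408 to 3.88) and 0.816 times (0.264 to 1.92). Of 88 interferon genes with UMIs in all of these sums, 21 were higher and 14 lower than at 02m in all 4 comparisons. The comparisons share their 02m sums, and the same count was not made over all genes. These numbers therefore describe the lists only and have no background beside them. Single cells weighed more at the older ages: the top cell held 28.0% of the Rsad2 UMIs of the class in CBMA_12m and 28.3% in CBMD_12m, against 0.469% in CBMA_02m and 0.752% in CBMD_02m. In CBMA_12m the top 2 cells held 48% of 50 Rsad2 UMIs, and Cmpk2 rested on 10 UMIs.

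In the other mature neutrophils most of the same genes were lower at the older ages. Rsad2 at 18m was 0.434 times its 02m level in CBMA (0.405 to 0.466) and 0.492 times in CBMD (0.459 to 0.527), Isg15 0.229 times (0.214 to 0.246) and 0.159 times (0.146 to 0.172), and Ifi27l2a 0.0516 times (0.0498 to 0.0534) and 0.0323 times (0.0308 to 0.0338). Over the interferon lists the median log2 ratio of 18m to 02m was 0.23 in CBMA and 0.20 in CBMD in interferon-response neutrophils, against -0.73 and -0.77 in the other mature neutrophils. Over all genes it was 0.06 and -0.06 in the class, against 0.01 and -0.03 outside it. The same limit of 2 UMIs was applied at each age to cells whose levels of these genes differed, so like cells in the class at each age cannot be assumed.

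**Figure D5:**
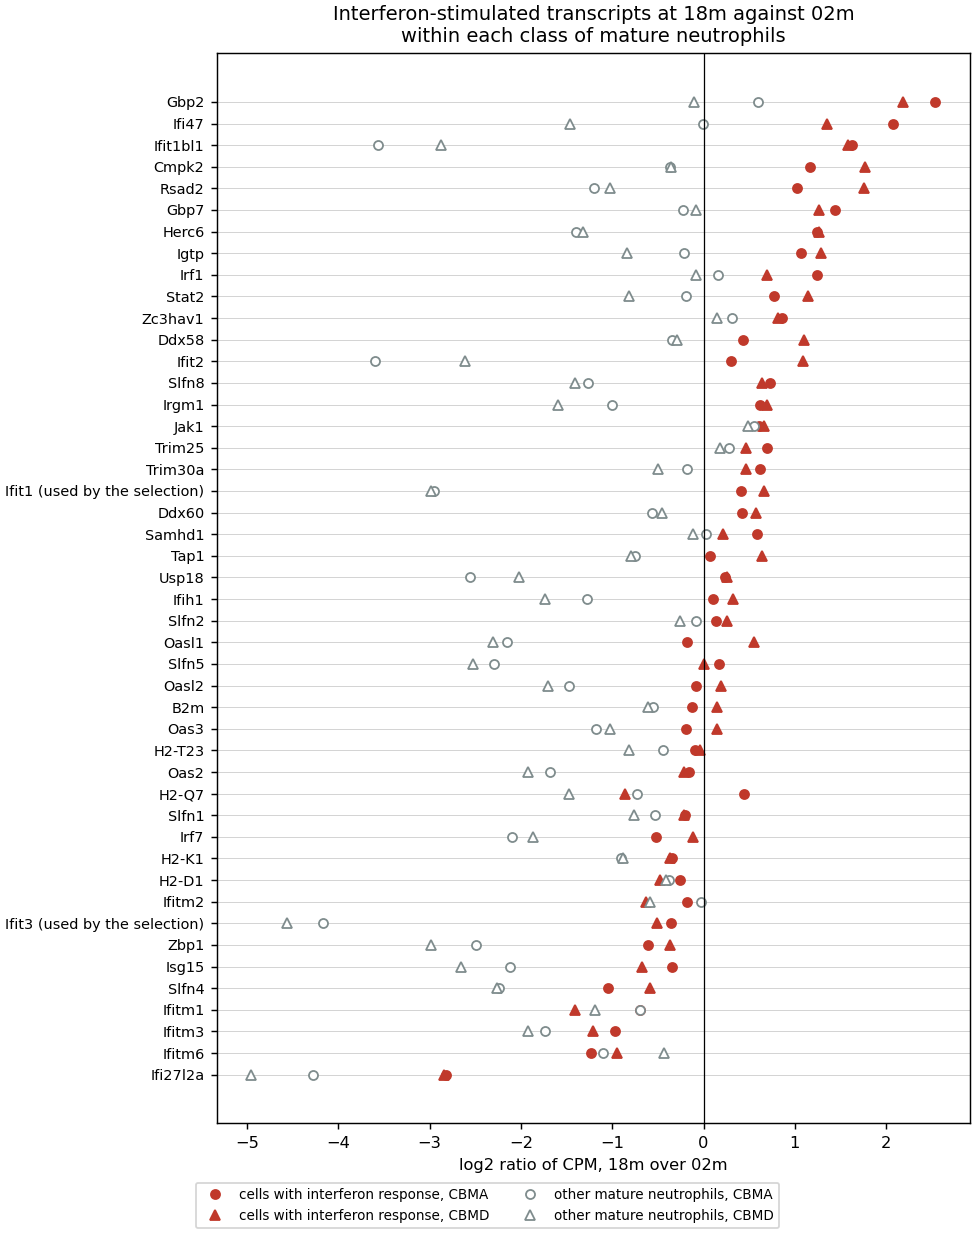
The log2 ratio of CPM at 18m over 02m (x axis) for 46 interferon-stimulated genes (rows, ordered by their mean in interferon-response neutrophils) in interferon-response neutrophils (filled) and other mature neutrophils (open) of CBMA (circles) and CBMD (triangles). Genes with at least 3 UMIs in each sum are drawn. Filled points run from -2.84 for Ifi27l2a to 2.54 for Gbp2, and most open points lie left of 0.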

How the data were processed

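The 6 libraries were single-cell 3' RNA-seq of 10x Genomics droplets. The authors demultiplexed reads with bcl2fastq and counted UMIs with Cell Ranger on GRCm38, and the deposited values are raw integer counts of UMIs for each barcode and gene. The other deposited columns name genes and barcodes. Quality limits were those of the study: between 500 and 5000 genes, more than 500 UMIs and less than 25% of UMIs from mitochondrial genes, which kept 37576 of 43420 barcodes, more than the number of cells the study states after the same limits. The reason for the gap is not given in the sources used here. Of the kept cells 323 shared a barcode with a cell of another library. The class rule, the members and the gene lists were chosen with earlier results of these data known.

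UMIs of interferon-response and of other mature neutrophils were summed per library and scaled to CPM. The sums held 34698 to 8206995 UMIs in the class, so the 12m sums are the least precise. Shares have exact Clopper-Pearson intervals and ratios of 2 sums exact binomial intervals, at 95%, for counting error only. The 12 sums were fitted with edgeR 4.0.16 (TMM, filterByExpr, quasi-likelihood, library as a block) in R 4.3.3, without the 9 genes of the rule, and SE is the log2 ratio over the square root of F. Only separate libraries are replicates here, and the p-values measure the spread between these 6. The fit was tested on simulated data: among 9979 genes with 200 changed, it recovered 83% at a log2 ratio of 1 and 98% at 2, and 2.16% of its calls were false. The simulated sums had the same ratio of a gene in every library. They had no selection of cells on their own UMIs, no doublets and no sum carried by a single cell. The share of false calls in the real data was therefore not measured.

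Doublets were scored with Scrublet in scanpy 1.11.5. Its automatic calls were under 0.5% of cells in 4 libraries, so the highest scores, 0.8% per 1000 barcodes, were left out as an alternative and kept otherwise. Other alternatives were a minimum of 1 or 3 UMIs, thinning to 1000 UMIs, Ltf, Ngp and Camp under 0.5%, median-of-ratios size factors, DESeq2 1.42.0, no low-count filter, the sites of an age summed, others with 0 UMIs, no 12m libraries and leaving out each library. Total UMI scaling, leaving out or keeping only the 02m libraries, equal-depth age medians and leaving out 1 CBMD_18m cell were chosen after seeing the data.

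Genes were named by rule: the 4 marker genes, up to 4 genes of each list by level and 2 by ratio with at least 20 CPM, and, outside the interferon lists, the 15 highest and 15 lowest ratios past an adjusted p of 0.05 with 1 direction in all 6 libraries. Nkg7, Col1a2, Daxx and single-cell values were chosen after their values were seen. One gene of the interferon signaling list is not reported here by itself and stays in the list's counts. Age ratios used genes with at least 50 UMIs over both sums, and 0.5 was added to each sum for log2 ratios. Promoters were RefSeq sequences of GRCm38.p6. Scripts ran under Python 3.11.15 (pandas 2.3.3, scipy 1.17.1, numpy 2.4.6 and matplotlib 3.10.9).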

Additional observations from a re-analysis of the deposited data

Results flagged for a closer look

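The difference between interferon-response and other mature neutrophils was compared between sites with an interaction term in edgeR's quasi-likelihood test. Of 9972 genes 13 passed an adjusted p of 0.05, and 128 had an unadjusted p under 0.05. As log2 differences of the CBMD minus the CBMA contrast, the globin genes had -3.93 (Hbb-bt), -2.67 (Hbb-bs), -2.92 (Hba-a2) and -2.68 (Hba-a1). The plasma cell gene Jchain had 2.68, the immunoglobulin chains Igkc and Ighm had 1.48 and 1.47, and the endoplasmic reticulum gene Txndc5 had 2.28. The stefin Stfa1 had -1.22, the MHC class II chaperone Cd74 had 1.12, and the stromal genes Col1a2, Igfbp5 and Mgp had 2.48, 3.39 and 1.79.

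A single cell of CBMD_18m with 41627 UMIs and 2 Ifit1 and Ifit3 UMIs held 99.0% of the Igkc, 98.5% of the Ighm and 98.3% of the Jchain UMIs of its class in that library. It was not among the highest doublet scores. Without it 7 of 9950 genes passed, the 4 globin genes, Col1a2, Igfbp5 and Stfa1, and the log2 differences were -0.54 for Igkc, -0.46 for Ighm, -0.90 for Jchain, 0.40 for Cd74, 0.35 for Txndc5 and 1.80 for Mgp (edgeR adjusted p = 0.0569). That cell was found after the values were seen.

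Hbb-bs was at 12.7 CPM in the class and 526 CPM outside it in CBMD_02m, and at 2240 CPM in the class and 3050 CPM outside it in CBMA_02m. Outside the class 1 cell held 88.3% and 2 cells 97.4% of the Hbb-bs UMIs in CBMD_02m, and 1 cell 45.3% and 2 cells 65.9% in CBMA_02m.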

How the results depend on the processing

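The 2 classes were paired within each library in every fit. Between ages or sites no paired analysis was possible because each age and site has 1 library. All share ratios kept their direction under every alternative run. With a minimum of 1 UMI the ratios to 02m were 0.0983 (CBMA 12m), 0.0866 (CBMA 18m), 0.0600 (CBMD 12m) and 0.0793 (CBMD 18m). With 3 UMIs they were 0.0408 for CBMA 18m and 0.0239 for CBMD 12m, and thinning gave 0.0407 for CBMA 18m. Genes higher in the class numbered 124 with DESeq2 and 97 with the class chosen at equal depth, where 5519 genes were tested, and 141 to 212 with a library left out. Genes lower numbered 9 with DESeq2, 15 with sites summed, 51 with the 02m libraries alone and 16 to 28 with a library left out. The site interaction had 7 genes without the Igkc-rich cell. Without the 02m libraries 130 genes were higher and 19 lower of 6364.

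The median log2 ratio of the interferon lists to 02m in the class was -0.24 in CBMA 12m and -0.079 in CBMD 12m with size factors, and 0.31 in CBMD 18m. Size factors subtract 0.49 from all log2 ratios in CBMA 12m, which lowers them, and -0.11 in CBMD 18m, which raises them. It was -0.38 in CBMA 12m and -0.053 in CBMD 12m at equal depth, and with 3 UMIs 0.45, 0.39 and 0.49 in CBMA 12m, CBMA 18m and CBMD 18m. The direction at 12m thus depends on these settings.

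Log2 ratios that turned round were Fn1 at -0.70 without high doublet scores and -0.42 with thinning, and Jchain at -0.98 without the Igkc-rich cell. With the 02m libraries alone Gm5483 was 0.16, Cd74 0.69 and H2-Aa 1.02. Without 02m, H2-Ab1 was -1.91, Col1a1 -0.56 and Cxcl12 -2.02, and H2-Ab1 ran from -0.99 without CBMD_02m to 0.36 without CBMA_18m. The causes were not tested. The 12 cells of CBMA_12m set the precision there.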

Other observations

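Some transcripts on no list were higher in the class within each library. The gene models Gm13822, annotated as antisense, and Gm20559, annotated as a processed transcript, had log2 ratios of 1.40 and 0.96 in interferon-response over other mature neutrophils and were higher in 6 of 6 libraries. Gm13822 was at 85.2 to 231 CPM in the class, against 18.8 to 137 CPM outside it. Among genes lower in all 6 libraries were Lars2, the mitochondrial leucyl-tRNA synthetase, at -0.40, Igha, an immunoglobulin heavy chain, at -1.31 and the costimulatory ligand Cd80 at -0.55. Lars2 lost the call with the class chosen at equal depth (edgeR adjusted p = 0.719), without the 02m libraries (0.164) and without CBMD_02m (0.0726). Igha lost it at equal depth (edgeR adjusted p = 0.893) and in the 02m libraries alone (0.114). Cd80 lost the call with DESeq2 (adjusted p = 0.542) and without any of 5 libraries in turn.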
